A study of Homo sapiens with 7 samples.

Results

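Pattern recognition receptors are the proteins by which monocytes and macrophages sense conserved microbial molecules. Peaks of the vitamin D receptor (VDR) were examined here around the genes of 7 of them, which are NOD2, TLR1, TLR6, TLR10, TLR2, CLEC7A and CLEC4E. The genes were covered by 5 windows of the human genome build hg19, which are set by position and were chosen with earlier results of these data known. A total of 32 peaks in 25 separate sites overlapped these windows, out of 89218 peaks in all lists.

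The cells were THP-1, an established human monocytic leukaemia line. They were treated for 8 h with 100 nM 1α,25-dihydroxyvitamin D3 (1,25D), the hormone that activates VDR, or with its solvent, 0.1% ethanol (EtOH), with 3 VDR ChIPmentation libraries per treatment. ChIPmentation is a chromatin immunoprecipitation in which a transposase inserts the sequencing adapters. The labels name no genetic change in either group, and they do not say whether the replicates were separate cultures, so the spread between libraries may be technical. The lists hold peaks and no expression values, so the labelled cell type could not be checked against marker genes.

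VDR is a nuclear receptor that binds DNA together with a retinoid X receptor, typically at a pair of hexamer half-sites in direct repeat with 3 bases between them. NOD2 is a cytosolic sensor of muramyl dipeptide, a fragment of bacterial cell wall, and its gene has been described as a vitamin D target in monocytic cells. TLR2 pairs with TLR1 or TLR6 at the cell surface to recognise bacterial lipopeptides, and TLR10 is their close relative. CLEC7A, also called Dectin-1, binds fungal beta-glucan, and CLEC4E, also called Mincle, binds mycobacterial glycolipid.

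The windows were 237 kb wide for NOD2 (chromosome 16 at 50630000 to 50867000), 290 kb for the TLR10/TLR1/TLR6 cluster (chromosome 4 at 38670000 to 38960000), 225 kb for TLR2 (chromosome 4 at 154505000 to 154730000), 213 kb for CLEC7A (chromosome 12 at 10170000 to 10383000) and 208 kb for CLEC4E (chromosome 12 at 8586000 to 8794000). In the gene order of RefSeq's GRCh38.p14 table, NOD2 lies between SNX20 and CYLD among protein-coding genes, TLR10, TLR1 and TLR6 follow one another between KLF3 and FAM114A1, and TLR2 lies between TMEM131L and RNF175. CLEC7A lies between CLEC1A and OLR1. No hg19 gene annotation was used, so a peak is placed by window and coordinate, and it was not assigned to a gene, exon or intron. A window can hold a neighbour as well as the gene it is named after.

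Sequences upstream of the transcription start are shown for NOD2 and TLR2, whose windows held the sites that recurred between libraries, and for CLEC4E, whose window held none. They are the 250 bases before each start in RefSeq's GRCh38.p14 promoter table, in the sense of the gene, with any VDR-type half-site in capitals. The table had entries for 4 of the 7 genes, with 2 starts for NOD2, and the others are TLR2, TLR6 and CLEC4E. The coordinates of these sequences belong to GRCh38.p14 and cannot be set against the hg19 peak positions.
NOD2, first start, chr16:50696698-50696947, plus strand: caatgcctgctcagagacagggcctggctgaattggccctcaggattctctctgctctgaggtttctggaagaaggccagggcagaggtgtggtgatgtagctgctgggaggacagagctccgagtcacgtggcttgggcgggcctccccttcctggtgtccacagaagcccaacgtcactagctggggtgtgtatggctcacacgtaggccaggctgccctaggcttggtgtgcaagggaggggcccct
NOD2, second start, chr16:50699130-50699379, plus strand: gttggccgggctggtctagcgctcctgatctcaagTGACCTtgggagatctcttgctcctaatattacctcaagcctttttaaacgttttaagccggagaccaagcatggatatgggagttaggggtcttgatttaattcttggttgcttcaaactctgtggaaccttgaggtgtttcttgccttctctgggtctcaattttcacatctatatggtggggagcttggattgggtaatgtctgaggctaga
TLR2, chr4:153684030-153684279, plus strand: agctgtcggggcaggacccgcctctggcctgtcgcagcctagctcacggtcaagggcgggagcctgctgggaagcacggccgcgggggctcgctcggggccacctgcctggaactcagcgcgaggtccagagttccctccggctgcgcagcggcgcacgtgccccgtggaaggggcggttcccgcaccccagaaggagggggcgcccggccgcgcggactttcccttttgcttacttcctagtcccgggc
CLEC4E, chr12:8540906-8541155, minus strand: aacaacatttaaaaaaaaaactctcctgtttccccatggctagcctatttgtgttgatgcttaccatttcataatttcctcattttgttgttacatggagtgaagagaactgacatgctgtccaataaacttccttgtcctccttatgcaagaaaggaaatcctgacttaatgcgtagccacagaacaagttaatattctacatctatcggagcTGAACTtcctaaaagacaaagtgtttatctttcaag

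The hexamer AGGTCA was searched on both strands, as were the variant AGTTCA, the variant GGTTCA and the variant GGGTCA. The second NOD2 start had 1 match, AGGTCA on the opposite strand, and the CLEC4E start had 1 match, AGTTCA on the opposite strand. The first NOD2 start, TLR2 and TLR6 had no match. Of all 35116 promoters in the table, 33.8% held at least 1 of the 4 half-sites in the same 250 bases, so 2 of the 5 starts shown or named here is a share of the usual size. A pair of these half-sites in direct repeat with 3 bases between was in none of the 5 starts and in 0.0655% of all promoters. A match describes these letters only, and no peak was placed on these sequences.

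Of the other motifs searched, the PU.1 core GAGGAAG was found once, upstream of TLR6 (11.2% of all promoters), and the C/EBP motif TTGCNNAA once, upstream of CLEC4E (9.05%). A loose NF-kB pattern (3 G, any 5 bases, 2 C), whose matches can overlap on both strands, had 7 matches upstream of TLR2 and 4 at the first NOD2 start, and was in 54.4% of all promoters. The 250 bases of TLR2 were 72.4% G or C, against 36.4% for those of CLEC4E and of TLR6.

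Each library had its own peak list, with the authors' fold enrichment, a linear ratio over local background, and a p-value for each peak. As used here, 1,25D replicates 1 to 3 had 15262, 3647 and 8620 peaks, while EtOH replicates 1 to 3 had 15974, 33820 and 11895. The list of 1,25D replicate 2 ended on chromosome 16 at 50293713, before the NOD2 window, and covered only the CLEC7A and CLEC4E windows. Results for NOD2 and the TLR windows therefore compare 1,25D replicates 1 and 3 with 3 EtOH libraries. The lists of 1,25D replicate 3 and EtOH replicate 3 also ended early, on chromosome 5 at 90175161 and on chromosome 6 at 86580665. In list order both ends come after all 5 windows. Totals, ranks and shares of the lists that end early describe the listed part of the genome only. Read numbers are not in the lists, so the depth behind a peak is unknown, and a missing peak means that none passed the caller's threshold.

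Peaks that recurred between 1,25D libraries were found in the NOD2 and TLR2 windows. Peaks that shared at least 1 bp were merged into sites, and 3 of the 25 sites had a peak in every 1,25D list that covers them and in no EtOH list, 2 in the NOD2 window and 1 in the TLR2 window. That is 12% of the window sites, against 2.7% of all 23257 sites in a reference part of the genome. In list order this part runs from the end of the 1,25D replicate 2 list to the end of the 1,25D replicate 3 list. The 5 lists other than 1,25D replicate 2 are complete there, and the stretch before it was left out. Most sites of this part, 91.9%, were in 1 list only. Of the 1415 sites there called in both 1,25D lists, 44.3% had no EtOH peak. Where the lower of the 2 folds was under 5, as at all 3 window sites, 61.6% of 768 had none. A lack of EtOH peaks was thus usual for sites of this strength. None of these 3 sites had a fold of 4 or more in both 1,25D lists. With peaks of fold 4 or more alone the number was 1, which is another site, at 154685760 in the TLR2 window. That site had the highest fold of any window site in both 1,25D lists and also had a peak in 1 EtOH library. Names such as TLR2 site refer to the window, since no site was assigned to a gene. At any fold the number of sites in every 1,25D list and no EtOH list was 7 without 1,25D replicate 1 and 6 without 1,25D replicate 3, where a single 1,25D list has to call a site. No window site was called in every list, against 1.34% of all sites. The TLR10/TLR1/TLR6 window held single-library peaks only, and the CLEC7A and CLEC4E windows held no peak in any of the 6 lists.

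**Figure D1:**
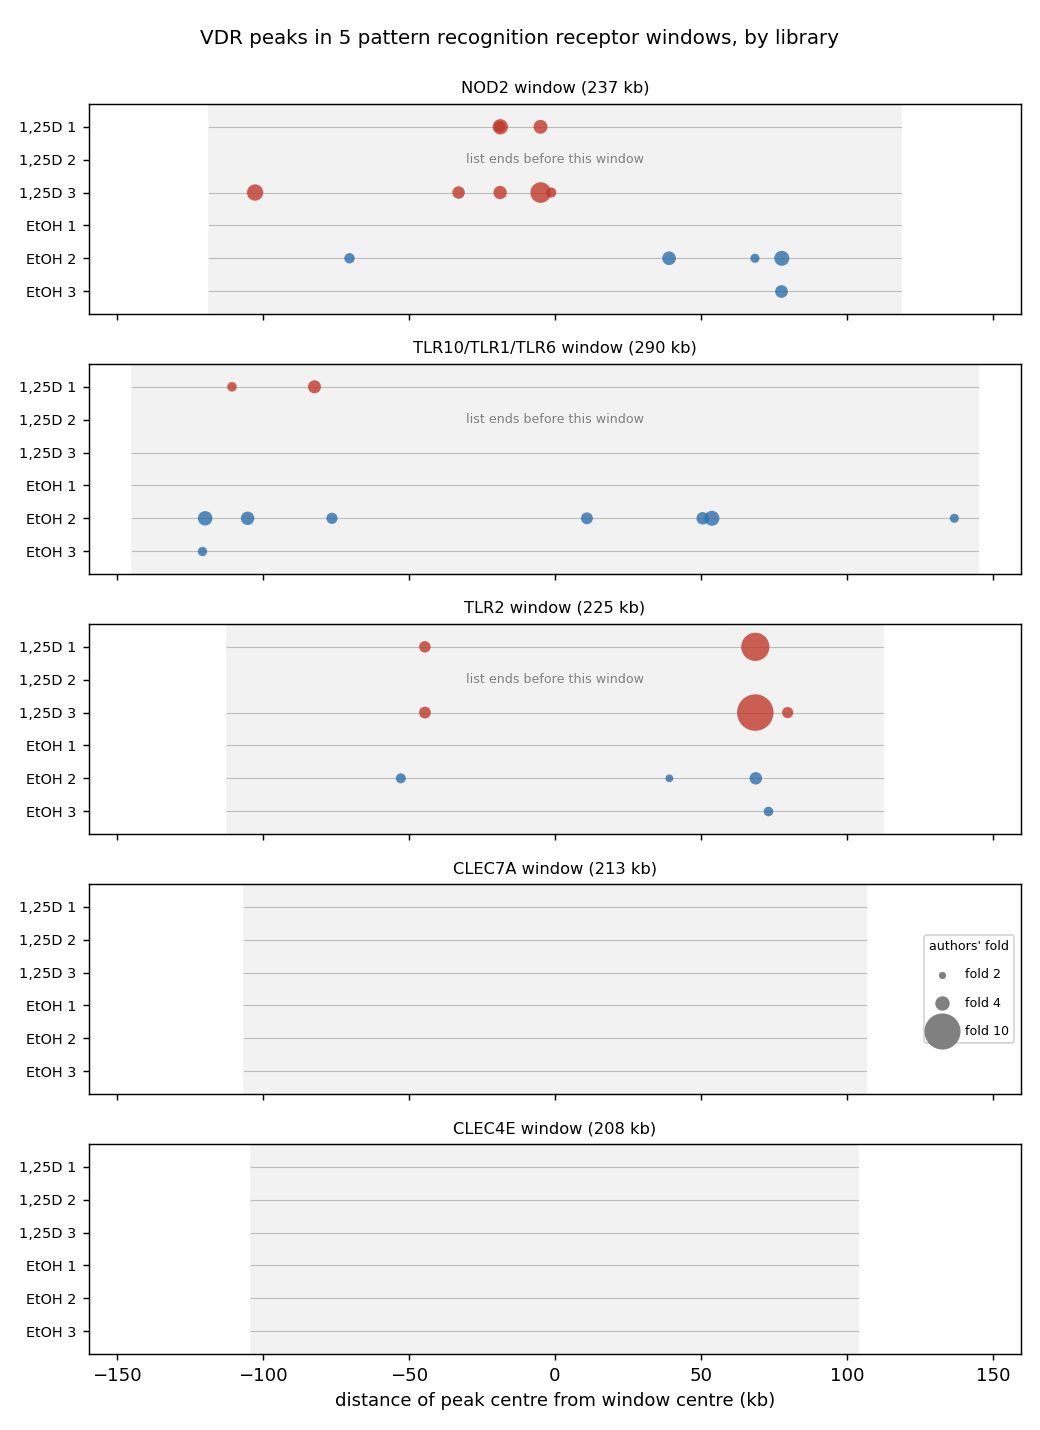
Peaks in the 5 windows, with the distance of the peak centre from the window centre in kb on the x axis and a line for each library on the y axis (1,25D red, EtOH blue). The area of a point grows with the square of the authors' fold, and grey bands mark the window widths. The largest points are those of 1,25D replicates 1 and 3 at 68.6 kb in the TLR2 window, and both CLEC windows are empty.

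Over all windows, 1,25D replicates 1, 2 and 3 had 7, 0 and 8 peaks, and EtOH replicates 1, 2 and 3 had 0, 14 and 3. The number of peaks of any strength did not separate the treatments, since EtOH replicate 2, the longest list, held 14 of the 17 EtOH peaks and EtOH replicate 1 held none. Per megabase of window, 1,25D replicates 1 and 3 had 5.97 and 6.82 peaks, against 5.22 and 4.17 over their whole lists. In 1,25D replicate 2, which covered the CLEC windows only, the values were 0 and 3.80. EtOH replicates 1, 2 and 3 had 0, 11.9 and 2.56, against 5.49, 11.5 and 5.32. A fold of at least 5 was reached by 1 peak in 1,25D replicate 1, by 2 in 1,25D replicate 3 and by 0 in each EtOH library. Over whole lists such peaks made up 15.0% and 21.8% of 1,25D replicates 1 and 3, and 4.80%, 2.58% and 3.78% of EtOH replicates 1 to 3.

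In the NOD2 window, 1,25D replicates 1 and 3 had 3 and 5 peaks, and EtOH replicates 1 to 3 had 0, 4 and 1. None of the 9 sites of this window was called in both treatments. In the same part of the genome 4.91% of all sites were called in both, so 0 of 9 is near the usual share. The 3 sites that recurred here were a pair called after 1,25D and a lone one called after EtOH. The other 6 sites were each in 1 list, with 3 in 1,25D replicate 3 (folds of 2.81 to 4.52) and 3 in EtOH replicate 2 (2.53 to 3.78).

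The stronger of the NOD2 hormone sites lay at 50743347 to 50743775, with its centre at -4.94 kb from the window centre. The authors' fold was 3.85 in 1,25D replicate 1 (p = 2.42e-05) and 5.71 in 1,25D replicate 3 (p = 4.65e-08), with no peak in EtOH replicates 1, 2 and 3. In 1,25D replicate 3 it ranked 1469 of 8620 peaks by fold, the top 17.0% of that list, and in 1,25D replicate 1 it ranked 6956 of 15262. The centres of the 2 peaks were 63 bp apart. This site held the only peak of the NOD2 window that reached a fold of 5, in 1,25D replicate 3.

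The other NOD2 hormone site lay 13.5 kb away, at 50729469 to 50729871. In 1,25D replicate 1 it was called as a pair of peaks with folds of 3.21 and 4.24, and in 1,25D replicate 3 as a single peak with a fold of 3.68 that bridged them. No EtOH list had a peak there. Its peaks were moderate within their lists, in the top 24.7% for the stronger peak of 1,25D replicate 1 and the top 42.4% for 1,25D replicate 3. A further peak, at 50747133 to 50747344 and with a fold of 2.81, was in 1,25D replicate 3 alone.

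Windows that hold 2 or more sites of this kind were uncommon. When the same part of the genome was divided into 4685 tiles of the NOD2 window's width, 11.4% held at least 1 site called in both 1,25D lists and no EtOH list, and 1.75% held at least 2. The window was chosen with earlier results of these data known and the tiles were made after the lists had been seen. These shares are therefore a description and not a test of the NOD2 window. The NOD2 window held 0.5 ± 0.707 peaks of fold 5 or above for each 1,25D library (SD, n = 2), against 0 in each EtOH library (n = 3), a difference of 0.5 (two-sided exact permutation p = 0.4). The smallest p that 2 against 3 libraries allow is 0.1. With the window widened by 50 kb on each side the difference was 1.5 and the exact permutation p 0.1, because a site just outside the lower edge, described below, is then counted. Without 1,25D replicate 3 it was 0.

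The EtOH site of the NOD2 window lay at 50825731 to 50826356, 77.5 kb above the window centre. The authors' fold was 4.15 in EtOH replicate 2 (p = 7.36e-06) and 3.52 in EtOH replicate 3 (p = 8.32e-05), with no peak in 1,25D replicates 1 and 3 or in EtOH replicate 1. The centres of the 2 peaks were 181.5 bp apart, and the peaks were 250 and 625 bp long. Of all sites in the same part of the genome, 0.494% were called in 2 EtOH lists and no 1,25D list. The fold and p-value of the EtOH replicate 2 peak were held by 2805 peaks, 8.29% of its list. The 2 recurring sites of the 1,25D lists lay nearer the middle of the window, a difference in place that was not tested.

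The strongest site of any window lay in the TLR2 window, at chromosome 4 from 154685760 to 154686523, 68.6 kb above the window centre. The authors' fold was 7.81 in 1,25D replicate 1 (p = 4.22e-13) and 10.1 in 1,25D replicate 3 (p = 1.59e-19), against 3.46 in EtOH replicate 2 (p = 1.00e-04) and no peak in EtOH replicates 1 and 3. Folds of separate lists were not tested against each other. The 1,25D peaks were 556 and 763 bp long with centres 8.5 bp apart, and the EtOH peak was 148 bp long, the shortest length in its list, with its centre 164 and 172.5 bp from theirs.

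Within its own list the 1,25D replicate 1 peak ranked 961 of 15262, the top 6.30%, and the 1,25D replicate 3 peak ranked 508 of 8620, the top 5.89%. The fold and p-value of the EtOH replicate 2 peak were held by 5313 peaks of its list, 15.7% of them. Of 146 sites with both 1,25D folds from 7 to under 12, 19.2% had no EtOH peak and 17.8% had 1. A further 22.6% had 2 and 40.4% had all 3. That range was chosen once the values at the site in the TLR2 window were known. Without EtOH replicate 2, the TLR2 site would be in both 1,25D lists and no EtOH list.

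A second, weaker site of the TLR2 window lay 112.7 kb lower, at 154572866 to 154573060. Its fold was 3.18 in 1,25D replicate 1 and 3.28 in 1,25D replicate 3, with no EtOH peak, and the centres were 45.5 bp apart. Both peaks were short, at 147 and 150 bp, and stood 78.5% and 58.8% of the way down their lists by fold. The 1,25D replicate 1 peak had the shortest length in its list. Its fold and p-value were held by 1196 peaks, 7.84% of that list. The other 4 sites of the window were each in 1 list, with folds of 2.17 to 3.09.

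**Figure D2:**
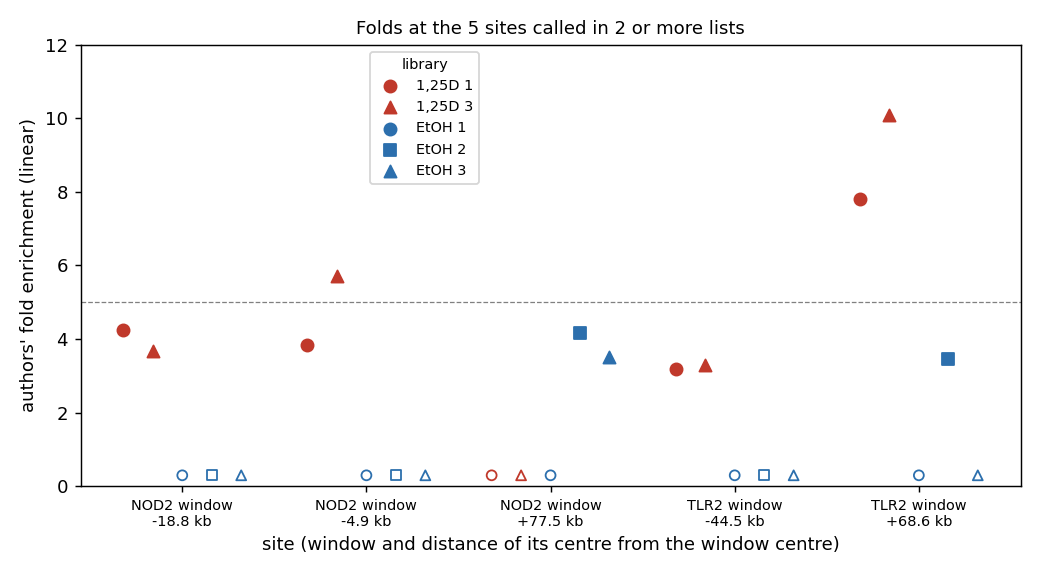
The authors' fold (y axis, linear) in each of the 5 libraries whose lists cover the NOD2 and TLR2 windows, at the 5 sites called in at least 2 lists (x axis, with the distance of the site centre from the window centre). Open symbols near the x axis mark libraries with no peak and carry no value, and the dashed line is a fold of 5. The TLR2 site at 68.6 kb is the only one with both 1,25D libraries above the line, at 7.81 and 10.1.

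In the TLR2 window each of the 2 1,25D libraries had 1 peak of fold 5 or above and each of the 3 EtOH libraries had 0, so the groups did not overlap (two-sided exact permutation p = 0.1, the lowest this design can give). In 6.93% of 4934 tiles of the same width, every 1,25D list had more such peaks than any EtOH list, and in 0.0203% every 1,25D list had fewer. Most tiles could show neither, since 79.5% of them held no peak of fold 5 or more in any list. The 6.93% is thus a share of all tiles and does not make the separation rare among tiles with a strong peak. With the window narrowed by 50 kb on each side the site falls outside it, and the number was 0 in every library.

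The TLR10/TLR1/TLR6 window held 10 peaks, and no 2 of them overlapped. Of these, 2 were in 1,25D replicate 1, with folds of 2.65 and 3.61, 7 were in EtOH replicate 2, with folds of 2.52 to 4.15, and 1 was in EtOH replicate 3, with a fold of 2.58. The lists of 1,25D replicate 3 and EtOH replicate 1 had none. Windows like this were common, since 59.8% of 3827 tiles of this width had at least 1 peak and no site in 2 or more lists. With peaks of any strength counted, the mean was 1 peak among 1,25D libraries and 2.67 among EtOH libraries, a difference of -1.67 (exact permutation p = 0.9). The 3 genes of this cluster, which encode the partners and the close relative of TLR2, had no recurring site in their window, whereas the TLR2 window had 2, a difference that was not tested.

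Weak peaks of the windows were mostly of 1 library. Of the 25 sites, 20 were in 1 list (80%, against 91.9% of all sites in the same part of the genome) and 5 were in 2 or more (20%, against 8.11%). The single-list peaks had folds of 2.17 to 4.52, and 12 of the 20 were within 5 bp of the shortest peak of their list, which in whole lists was true of 20.1% to 61.8% of peaks. Of the 14 in EtOH lists, 12 were in EtOH replicate 2. The strongest window peaks by fold within their own lists were those of the TLR2 site in 1,25D replicates 1 and 3.

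**Figure D3:**
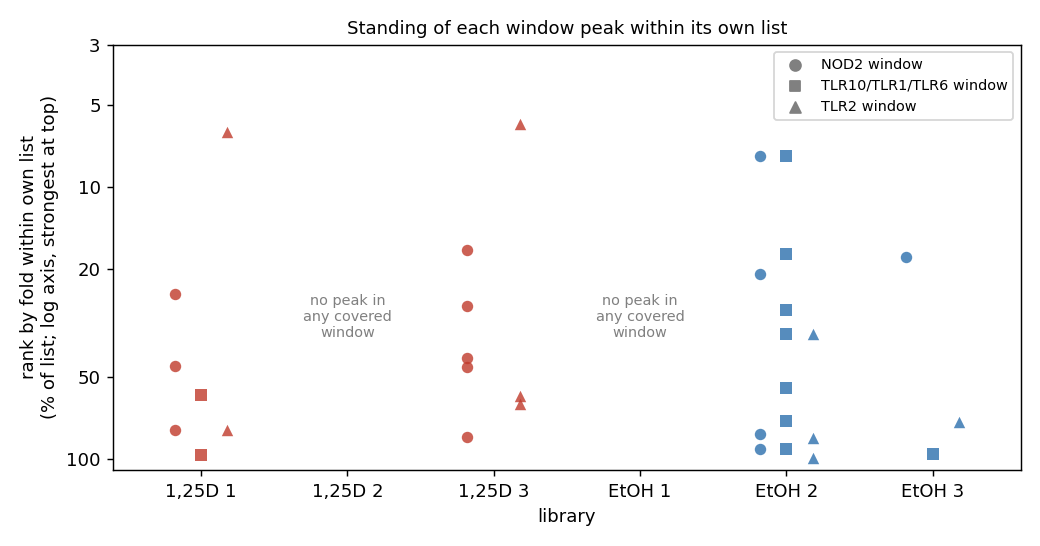
Standing of each window peak within its own list, as its rank by fold in percent of the list (y axis, log scale, strongest at the top; equal folds share the best rank), for each library on the x axis, with symbols for the window. The highest points are the TLR2 site in 1,25D replicates 1 and 3, at 6.30% and 5.89%, and the next are a NOD2 and a TLR10/TLR1/TLR6 peak of equal fold in EtOH replicate 2, at 7.72%.

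Around CLEC7A and CLEC4E none of the 6 lists had a peak, so the number of peaks was 0 in each of the 3 1,25D libraries and each of the 3 EtOH libraries. Over the part of the genome covered by all 6 lists, 11.1% of 4538 tiles of the CLEC7A width and 11.2% of 4645 tiles of the CLEC4E width had no peak either. On chromosome 12 alone the shares were 15.5% and 15.6%. An empty window of this size is thus no rarity, and where reads cannot be placed no peak can be called, which was not tested.

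The peak-free stretch around CLEC7A was much longer than its window. No list had a peak between 9911527 and 11699005, a stretch of 1787 kb, the 7th longest of 28981 such stretches in this part of the genome and the 3rd longest on chromosome 12, against a median of 13.6 kb. Stretches at least as long made up 4.73% of this part of the genome, a share that counts length and not the number of stretches. Its upper end was a lone peak of EtOH replicate 2. The next site, at 11899155 to 11900054, was called in all 6 lists, with folds of 7.81, 8.24 and 7.40 in 1,25D replicates 1 to 3 and 4.76, 3.46 and 4.75 in EtOH replicates 1 to 3. The stretch around CLEC4E ran from 8395840 to 8899640, 504 kb, and stretches at least as long as this made up 9.61%. Its lower end was a site called in 1,25D replicates 2 and 3 with folds of 5.31 and 7.93 and in no other list, 190 kb from the window.

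Other window edges also had sites nearby. The nearest site below the NOD2 window, at 50622809 to 50623158 and 6.84 kb outside it, had folds of 6.03 and 5.54 in 1,25D replicates 1 and 3 and of 4.53 in EtOH replicate 1. Among the sites inside, the fold of 5.71 in 1,25D replicate 3 was the only one in either 1,25D list to exceed its fold there. The outermost peak inside that edge was 15.7 kb from it, with a fold of 4.52 in 1,25D replicate 3. Below the TLR2 window, 95.4 kb outside it, a site at 154409172 to 154409558 had folds of 3.83 and 10.4 in 1,25D replicates 1 and 3 and no EtOH peak. The outermost peak inside that edge had a fold of 2.77 in EtOH replicate 2. Above the TLR10/TLR1/TLR6 window the nearest site of both 1,25D lists was 109.9 kb away, with folds of 5.41 and 4.89 in 1,25D replicates 1 and 3 and of 3.57 in EtOH replicate 1.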

How the data were processed

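VDR ChIPmentation peak lists of THP-1 cells were used, 3 from 1,25D and 3 from EtOH, with 1 input library not analysed here. The submitters' processing notes name Bowtie 1.1, MACS2 and hg19 (GRCh37). Their settings are not given in the sources used. The authors deposited 1 list per library, with a fold enrichment (a ratio over background) and a p-value per peak, per the file headers. Both replicates 1 reach a highest p of 0.00433 or less and the other lists at least 0.00978. Folds are each list's own. They were ranked and filtered within lists, and where folds of several lists are given side by side they are a description with no test. Whether starts count from 0 or 1 is not stated.

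Of the 6 lists, 3 end in mid-line as used here, those of 1,25D replicates 2 and 3 and of EtOH replicate 3. The incomplete line was left out. Peaks sharing 1 bp were merged into sites with Python 3.11.15 and pandas 2.3.3, tested on simulated lists. Peaks of fold 5 or more per window were compared by an exact permutation test over libraries, two-sided, on the absolute difference in means. A tile is a stretch of a window's width, laid end to end between the first and last peak of each chromosome. Sites named are those in 2 or more lists or with a fold of 5 or more. Members, windows and lists were chosen with earlier results of these data known, and the tiles, peak-free stretches and edges after the lists had been seen. Alternatives were other fold and p limits, window sizes, overlap rules, left-out libraries and a replicate block. A planned look at 35 further genes of pathogen sensing and neighbouring loci needs hg19 gene positions and was not run. Columns belonging to other samples numbered 0.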

Additional observations from a re-analysis of the deposited data

How the results depend on the processing

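Of 95 alternative values, 84 kept their direction and side of the threshold, or stayed within 1.5 times for counts. In the NOD2 window the difference in peaks of fold 5 or more was 0 at fold 10, and 0 to 1 with single libraries left out. In the TLR2 window it was 0 with the window narrowed, and 1 with any single library left out. In the TLR10/TLR1/TLR6 window it was 0, but -1.67 at any fold, -0.667 at fold 4, -0.333 at a p of 1e-05 or less and -1.33 at a p of 0.004 or less, a limit added after the data were seen. Sites in every 1,25D list and no EtOH list numbered 3, but 1 at fold 4, 3 to 7 with single libraries left out and 7 without either replicate 1, where fewer lists have to agree. None of the 3 remains at fold 4, and the site counted there is the TLR2 site at 154685760, whose EtOH peak of fold 3.46 is then left out. In both CLEC windows every value was 0, and so was every number of sites called in all lists. These zeros count among the 84 and say little about how stable the other results are. No exact permutation p of these designs can be below 0.1, so no alternative could have passed a lower limit. The NOD2 differences counted among the 84 ran from 0.5 to 2.33, the latter with peaks of any fold. With the replicate number as a block the difference was 0.5 for NOD2 (exact permutation p = 1) and 1 for TLR2 (exact permutation p = 0.5), over 4 sign changes, and 0 for the other windows. Same-numbered libraries deviated together with correlations of 0.183, 0.0299 and 0.161 over 195 bins of 5 Mb. Each of the 6 libraries correlated best with its own number. A link between same-numbered libraries is therefore possible, and the main tests, which did not take the numbers as pairs, ignore it. Depth is unknown, and peaks under the caller's threshold are not seen.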

Other observations

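Many of the weak window peaks carried values that recur throughout their list. Of the 32 window peaks, 10 had a fold and p-value identical to those of at least 5% of the peaks of their own list, 4 in 1,25D lists and 6 in EtOH lists. In 1,25D replicate 3, the peak at 154697160 in the TLR2 window, with a fold of 3.09, had values held by 1289 (15.0%). In EtOH replicate 3, the peak at 154690317 in the TLR2 window, with a fold of 2.66, had values held by 2358 peaks (19.8% of the list). In 1,25D replicate 3 the peak at the stronger NOD2 site was the only one with its values. Peaks in the windows had a median length of 166 bp in the 1,25D lists (142 to 763 bp) and 151 bp in the EtOH lists (148 to 625 bp).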
